A study of Mus musculus with 12 samples.

Results

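Histone genes were followed in mouse CD4+ T cells over 72 array probes of 52 genes, out of 45281 probes for 19057 named genes on the array. They were all probes whose gene symbol is that of a core or linker histone gene of the H1f, H2ac, H2bc, H3c or H4c series, or H2az1, H2az2, H2ax, H3f3a or H3f3b, and whose detection p-value was under 0.01 on 2 or more of 12 arrays. Total RNA of splenic CD4+ T cells from mice aged 2 months was labelled as biotinylated cRNA and hybridised to Illumina mouse BeadChips. The strain label of every sample is B6.Cg-Tg(TcraTcrb)425Cbn/J, a line with transgenic T cell receptor chains, whereas the design text names C57BL/6. IL7 Th9 cells (3 arrays) came from naive CD4+ T cells kept with interleukin-7 (IL-7) for 48 h and then in Th9 culture for 3 days, and Th9 cells (3 arrays) had the Th9 culture without IL-7. Naive CD4+ T cells were taken at 0, 6 and 24 h of IL-7 (2 arrays each). The 0 h cells are the only naive cells without IL-7, so IL-7 and time in culture cannot be told apart. For Th9 cells no culture of 48 h before the Th9 culture is given. Earlier IL-7 and that time therefore cannot be told apart in IL7 Th9 against Th9 cells either. The 6 arrays of naive cells lay on 1 BeadChip and the 6 arrays of Th9 cells on another. It is not given whether replicates were separate animals or cultures, so p-values measure the spread between these arrays, which may be technical.

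Core histones H2A, H2B, H3 and H4 form the nucleosome, around which DNA is wound, and H1 binds the linker DNA. Most of their genes lie in clusters of many near-identical copies and are transcribed mainly in S phase, when new DNA has to be packed. The mRNAs of these replication-dependent genes end in a stem-loop instead of a poly(A) tail and are degraded when DNA synthesis stops. Replacement histones such as H3.3 (H3f3a, H3f3b), H2A.Z (H2az1, H2az2), H2A.X (H2ax) and H1.10 (H1f10) are made outside S phase as well, from mRNAs that are mostly polyadenylated. H2ax makes mRNAs of both kinds. Resting naive T cells are kept alive by IL-7, and T cells that are activated into an effector type such as Th9, which makes interleukin-9, divide rapidly. The labels name an Ambion MessageAmp kit, a type of labelling that starts at poly(A) tails, so that less mRNA and a smaller tailed share of it cannot be told apart for the replication-dependent genes. In these bulk samples, fewer cells of a type and less RNA per cell cannot be told apart either.

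Before the detection filter the symbols gave 95 probes of 64 genes. Of the 72 probes that passed, 65 (46 genes) belonged to replication-dependent genes and 7 (6 genes) to replacement histones. Members were chosen by their detection p-values and symbols, so the filter itself is no result. Of the members, 47 were detected on all 12 arrays. None of the 5 probes for germ line histones (H1f6, H1f7, H1f8, H2ac1, H2bc1) passed. H1f5, H3c8 and H4c14 were just inside the filter, each detected on exactly 2 arrays, with highest deposited signals of 29.5, 22.7 and 37.0. The H2bc18 probe was just outside, with 1 array and a highest signal of 28.7. The other 22 probes left out were detected on no array. By type, the replication-dependent members were 3 H1, 20 H2A, 12 H2B, 13 H3 and 17 H4 probes. By the RefSeq annotation, 53 of the 65 lie on chromosome 13 and 12 on chromosome 3, whereas the replacement genes are scattered over chromosomes 1, 3, 6, 9 and 11. Gene copies of 1 type are nearly identical in their coding sequence, and the probe sequences were not used here. Probes of 1 type may therefore read the same transcripts and do not count as separate replicates.

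Promoter windows from RefSeq (GRCm38.p6, 250 bases before to 50 after the annotated start) were matched to 46 of the 52 member genes, in 47 windows. To show how the promoters of the types differ, 1 window each of an H4, an H2B, an H3 and a replacement gene is printed below, 5′ to 3′ along the gene's strand. Capitals mark matches, on either strand, to the octamer ATTTGCAT known from H2B promoters, to TATAAA and to CCAAT, which do not overlap each other in these windows. H4c6 (chr13:23551619-23551918, minus strand) holds TATAAA at the far end of its window. H2bc12 (chr13:22035571-22035870, plus strand) holds all 3 motifs, and its window shares 277 bases with that of H2ac12 on the opposite strand. H3c6 (chr13:23562336-23562635, minus strand) and the replacement gene H2az1 (chr3:137864237-137864536, plus strand) hold CCAAT only.
H4c6: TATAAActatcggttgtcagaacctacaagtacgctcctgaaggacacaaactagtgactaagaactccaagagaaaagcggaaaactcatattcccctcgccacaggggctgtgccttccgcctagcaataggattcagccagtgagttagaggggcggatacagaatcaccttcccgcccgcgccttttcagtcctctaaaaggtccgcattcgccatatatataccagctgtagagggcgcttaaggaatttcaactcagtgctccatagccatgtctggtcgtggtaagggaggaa
H2bc12: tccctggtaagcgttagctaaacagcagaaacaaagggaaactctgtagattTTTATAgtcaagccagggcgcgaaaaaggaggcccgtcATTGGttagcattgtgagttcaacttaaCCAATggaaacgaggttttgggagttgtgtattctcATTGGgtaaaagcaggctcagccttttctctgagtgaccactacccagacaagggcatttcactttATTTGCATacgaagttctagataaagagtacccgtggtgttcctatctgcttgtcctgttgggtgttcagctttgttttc
H3c6: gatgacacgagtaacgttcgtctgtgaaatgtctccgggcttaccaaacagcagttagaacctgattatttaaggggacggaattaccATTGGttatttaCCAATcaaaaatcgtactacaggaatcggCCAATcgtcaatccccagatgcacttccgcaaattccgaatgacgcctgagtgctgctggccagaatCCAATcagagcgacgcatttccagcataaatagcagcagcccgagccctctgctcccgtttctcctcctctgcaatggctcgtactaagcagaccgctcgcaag
H2az1: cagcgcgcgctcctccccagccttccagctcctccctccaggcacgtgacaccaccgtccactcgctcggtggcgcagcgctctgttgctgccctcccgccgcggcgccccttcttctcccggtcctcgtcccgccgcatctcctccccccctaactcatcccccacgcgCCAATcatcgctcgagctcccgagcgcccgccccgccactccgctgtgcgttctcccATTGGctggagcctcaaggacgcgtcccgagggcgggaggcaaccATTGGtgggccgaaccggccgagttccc
CCAAT was found in 34 of the 42 windows of replication-dependent members and in 4 of 5 replacement windows, against 37.4% of 32851 promoter windows in the table. Among replication-dependent members it was in all 14 H2A, 8 H2B, 7 H3 and 2 H1 windows, but in 3 of 11 H4 windows. TATAAA was in 23 of the 42 windows (8 of 11 for H4), against 13.6% of all windows, and the octamer in 7 (4 H2A and 3 H2B), against 1.74%. Of the 5 replacement windows that of H3f3b held both TATAAA and the octamer, and the others neither. These matches describe letters in a window and say nothing of binding.

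The arrays were compared on a log2 scale after background correction and quantile normalisation, with 1 limma fit over all 12 arrays and Benjamini-Hochberg adjustment over the 18017 probes detected on 2 or more arrays. Rose and fell below mean an adjusted p under 0.05 in that fit. Between 28.3% and 34.5% of probes were detected per array, and the number of arrays limits the precision. The T cell genes Cd3d, Cd3e, Cd3g, Cd2, Cd247 and Cd4 were detected on all 12 arrays, while the Cd5 probe was detected on none. Cd8b1, a CD8 T cell gene, was detected on all 12 arrays as well and Cd8a on none. Il9 was detected on the 6 arrays of Th9 cells alone. The first 6 h array stood apart. Its summed signal over 9 probed genes of a B cell list was 10436.5, against 147.4 to 630.3 on the other 5 arrays of naive cells. Most of that sum came from Cd74, H2-Ab1, H2-Eb1 and H2-Aa (4418.3, 2675.4, 1570.9 and 1404.9), genes of antigen presentation, so the sum alone does not single out B cells. Cd79b was at 292.1, against 60.2 to 140.3 on the other 5. Blk, also of the B cell list, was at 57.8, against -6.5 to 12.5 on the other 5, and was detected on this array alone. Cd22, Ms4a1 and Pax5 were detected on none. Which cells carried these signals was not tested. Over 13 myeloid markers the summed signal was 5184.9, against 1036.0 to 1688.1. Xist, a transcript of female cells, had a signal of 692.4 there and 792.4 on the first IL7 Th9 array, and it was not detected on the other 10. The 6 h arrays correlated at 0.967, and the pairs at 0 and 24 h at 0.994 and 0.993. Counts at 6 h and the values of the leading genes are therefore given with and without this array.

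**Figure D1:**
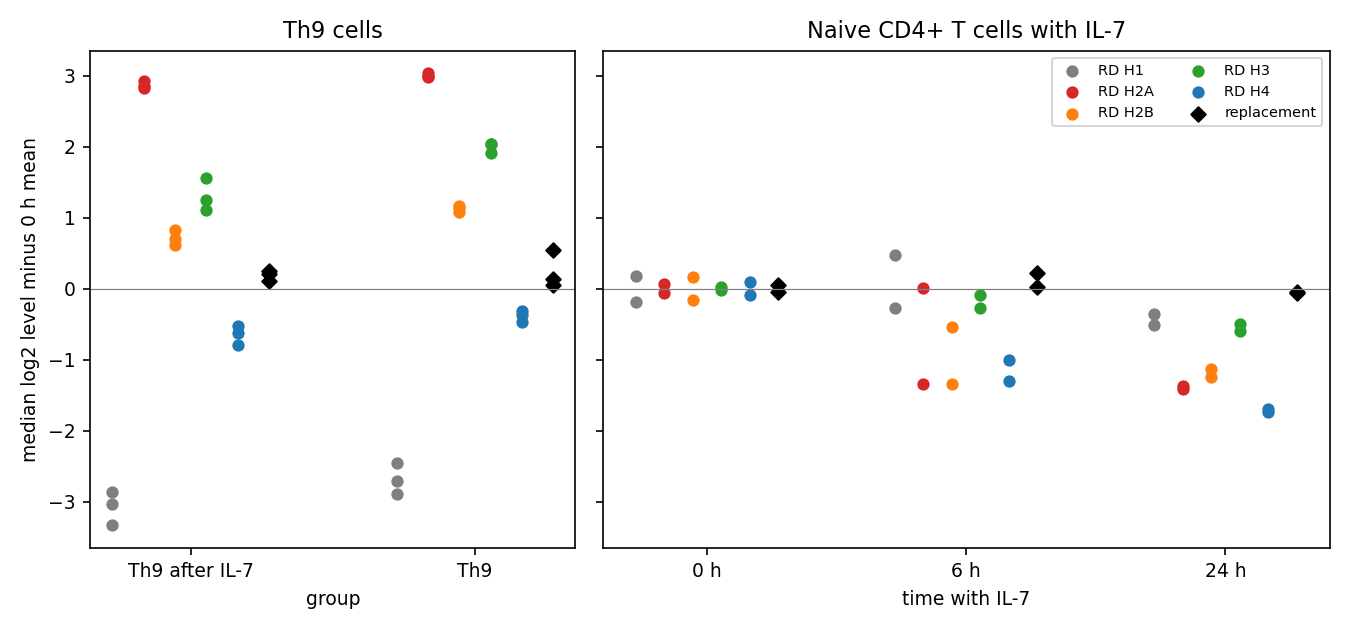
Median log2 level of each histone type on each array (1 point per array), relative to the mean of the 0 h arrays, for replication-dependent (RD) types and the replacement histones. RD H4 was low at 6 and 24 h (-1.004 to -1.738), RD H2A was high in both Th9 groups (2.83 to 3.03), and the 6 h arrays lay apart for RD H2A (0.01 and -1.34).

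Replication-dependent histone signals were lower in naive cells with IL-7 than in naive cells without it. At 6 h, 23 of the 72 probes fell and 0 rose, and at 24 h 34 fell and 0 rose. All of these were replication-dependent. In the same fits 6.14% of all probes were called at 6 h (3.32% fell and 2.81% rose) and 5.39% at 24 h (2.67% fell and 2.72% rose). The median log2 fold change of the 65 replication-dependent probes was -0.97 at 6 h and -1.28 at 24 h. The 7 replacement probes had medians of 0.14 and -0.08, and all probes tested -0.02 and 0.00. With probes that were not well above background in 1 group set to their bound, explained below, the replication-dependent medians were -0.97 and -1.20. At 24 h, 57 of the 65 replication-dependent probes were lower on both arrays than on both 0 h arrays, as were 29.6% of all probes tested. Among the 42 detected on all 12 arrays 24 fell at 24 h, and among the other 23, 10.

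The H4 genes showed this on both 6 h arrays. Of 17 H4 probes, 14 fell at 6 h (median -1.11) and 14 at 24 h (median -1.73, or -1.54 at the bounds), and all 17 were lower on every 6 and 24 h array than on the 0 h arrays. At 6 h that held for 30% of all probes tested. H4c14, among the 17 and among the 14 that fell at 6 h, passed the detection filter only through the 0 h arrays. Its decrease was close to fixed by the filter and is no result. H4c6 (probe ILMN_1222313) had log2 levels of 7.97 and 7.74 at 0 h, 6.57 and 5.97 at 6 h, and 5.57 and 5.36 at 24 h. It fell by 1.58 ± 0.25 on the log2 scale (SE) at 6 h (adjusted p = 0.00365) and by 2.39 ± 0.25 at 24 h (adjusted p = 0.000405), the largest fitted decrease among the members at both times. Both arrays of each time lay clear of the other times. H4c1 had levels of 9.36 and 9.11 at 0 h, 8.05 and 7.74 at 6 h, and 7.36 and 7.45 at 24 h. It fell by 1.34 ± 0.17 and by 1.83 ± 0.17 (adjusted p = 0.00133 and 0.000264). H4c3 was at 6.51 and 6.54 at 0 h and at 5.52 and 5.15 at 6 h, and at 24 h it was not well above background. Its decrease at 6 h was 2.28-fold and at 24 h at least 2.85-fold (adjusted p = 0.00304 and 0.000237). H4c12 was not well above background at 24 h on probe ILMN_1243654 either and was at least 4-fold lower (adjusted p = 0.000421). Such a bound sets the measured mean against the lowest signal detected on the arrays of the dim group. H4c9, both probes of H4c18, H4c11 and H4c17 also fell at both times.

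H2B and H3 genes followed with fewer calls at 6 h. Of 12 H2B probes, 4 fell at 6 h (median -0.95) and 10 at 24 h (median -1.16). H2bc21 (probe ILMN_1253851) had levels of 6.98 and 7.06 at 0 h, 5.90 and 5.87 at 6 h, and 5.44 and 5.60 at 24 h. It fell by 1.13 ± 0.17 at 6 h and fell by 1.503 ± 0.17 at 24 h (adjusted p = 0.00281 and 0.000686). Its second probe, ILMN_1231066, was not called at either time: it had levels of 7.56 and 7.74 at 0 h, 6.73 and 7.10 at 6 h, and 7.74 and 7.57 at 24 h. Both probes of H2bc12, whose promoter window is printed above, fell at both times, by 0.92 and 1.04 at 6 h and by 1.09 and 1.04 at 24 h. Of 13 H3 probes, 4 fell at 6 h (H3c1, H3c6, H3c7 and 1 probe of H3c10) and 6 at 24 h. H3c7 (probe ILMN_2748164) was at 7.24 and 7.06 at 0 h, 5.96 and 5.58 at 6 h, and 5.32 and 5.28 at 24 h. It fell by 1.38 ± 0.18 and by 1.85 ± 0.18 (adjusted p = 0.00158 and 0.000285). The second H3c7 probe, ILMN_2925169, was not called at either time. It had -0.96 ± 0.40 at 6 h and -0.52 ± 0.40 at 24 h (adjusted p = 0.203 and 0.619). H3c6 fell by 1.31 ± 0.19 and by 1.64 ± 0.19 (adjusted p = 0.0029 and 0.000904). H3c13 and H3c14 (probe ILMN_3136540), the brightest H3 probes of the replication-dependent set, were not called at either time.

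**Figure D2:**
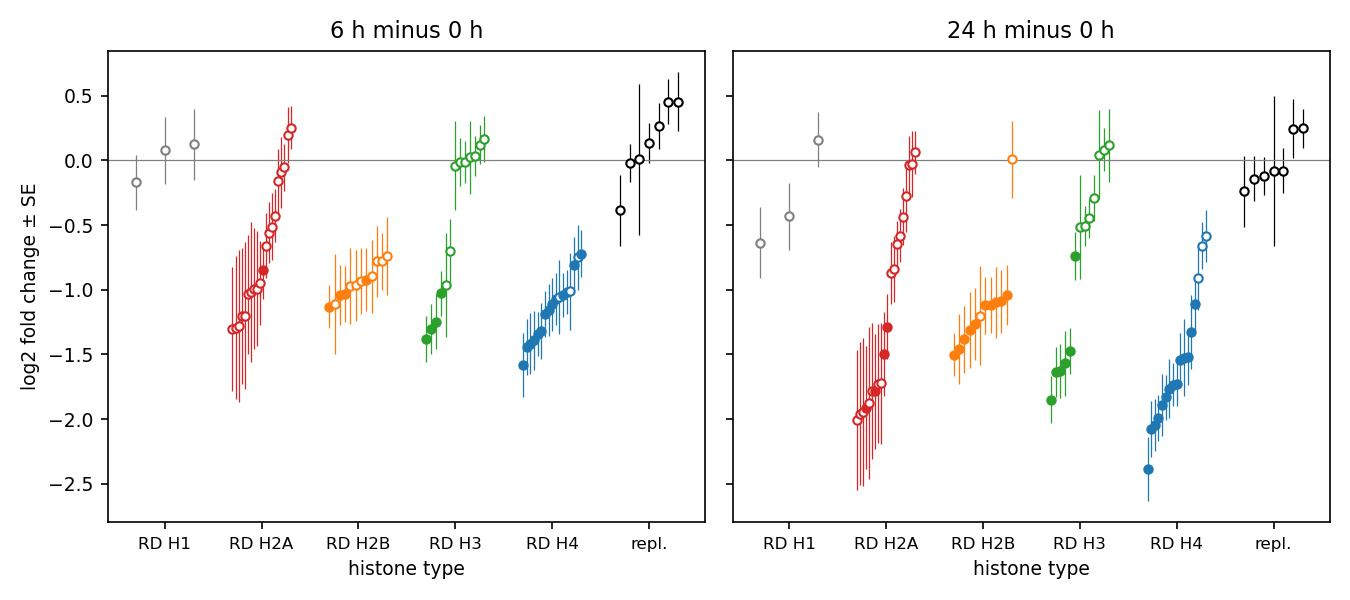
Log2 fold change of each histone probe with its standard error in naive CD4+ T cells at 6 h and at 24 h of IL-7, each minus 0 h, by histone type. Filled points passed the test. The 17 RD H4 probes all lie below 0 at both times, and the 7 replacement probes between -0.39 and 0.45.

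H2A genes split the 6 h arrays, and 1 of 20 H2A probes (H2ac8) fell at 6 h. The first 6 h array lay above the second by a median of 1.18 log2 units over the 20 H2A probes and by up to 2.71, with 11 of 20 more than 1 unit apart. For H4 the median gap was 0.29, for replacement probes 0.16, and for all probes tested -0.07, with 2.83% more than 1 unit apart in that direction. H2ac24 was at 11.34 and 11.46 at 0 h, at 11.41 on the first and 9.41 on the second 6 h array, and at 9.52 and 9.71 at 24 h. The first 6 h array thus resembled 0 h and the second 24 h. H2ac7 (probe ILMN_2795040) had 9.43 and 9.73 at 0 h, 9.80 and 7.33 at 6 h, and 7.62 and 7.53 at 24 h. At 24 h the 20 H2A probes had a median of -1.39, but with their wide spread 4 fell (H2ac11, H2ac21, H2ac22 and H2ac24). H2ac24 fell by 1.79 ± 0.44 (adjusted p = 0.0407), a call that was lost with the experiments normalised apart, while for H2ac7 the value was -2.01 ± 0.54 (adjusted p = 0.0572).

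Without the first 6 h array 42 probes fell at 6 h, 14 of them H2A, 10 H2B, 5 H3 and 13 H4, while 6.94% of all probes were called. The lone 6 h array is then assumed to vary like the other groups. Without the first array the values at 6 h were -1.88 for H4c6, -1.50 for H4c1, -1.37 for H4c3, -1.57 for H3c7, -1.59 for H3c6 and -1.15 for H2bc21 on the probes named above, all of which fell (adjusted p from 0.000762 to 0.00832). At 24 h 45 fell without it (14 H2A and 15 H4), while 6.84% of all probes were called. Single 0 h and 24 h arrays mattered as well: without 1 of them fewer histone probes and fewer of all probes were called. The replication-dependent median at 6 h was -1.025 without the first and -0.853 without the second 0 h array. At 24 h it was -1.369 without the first 0 h array and -1.183 without the second. It was -1.24 without the first 24 h array and -1.323 without the second. In fits of only the 2 groups compared 5 probes were called at 6 h and 53 at 24 h, and with the experiments normalised apart 21 were called at 24 h. Whichever of the 12 arrays was left out, 6 probes still fell at 6 h (of H2bc21, H3c6, H3c7, H4c1, H4c12 and H4c3) and 16 at 24 h.

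Among the arrays of naive cells, red cell transcripts were low where the H2A signals were low. The summed signal of 4 probed erythroid markers was 1214.4 and 898.7 at 0 h, 3069.5 and 419.7 at 6 h, and 110.4 and 148.2 at 24 h. Hba-a1 and Hbb-bt, the globin genes, made up nearly all of it, and Alas2 was detected on no array. The arrays of Th9 cells did not share this pattern. Their H2A medians relative to 0 h were the highest (2.83 to 3.03). Their erythroid sums were 240.6, 165.9 and 147.0 in Th9 cells and 6.6, 19.3 and 24.8 in IL7 Th9 cells. Of 3 tested erythroid genes 0 were called at 24 h in the limma fit and 2 were lower at an unadjusted p under 0.05. Natural killer markers, 6 of them probed, summed to 2630.0 and 2002.6 at 0 h, 586.3 and 1021.4 at 6 h, and 1925.8 and 1224.8 at 24 h, and 2 of 4 tested fell at each time. Without the first 6 h array 1 erythroid gene (Hba-a1) and 1 natural killer gene (Nkg7) fell at 6 h. Ncr1 was detected on no array. The sums over the B cell list, mostly genes of antigen presentation on the first 6 h array, were 527.5 and 630.3 at 0 h, 10436.5 and 314.2 at 6 h, and 147.4 and 294.3 at 24 h. The part of other cell types in the histone signals was not tested.

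**Figure D3:**
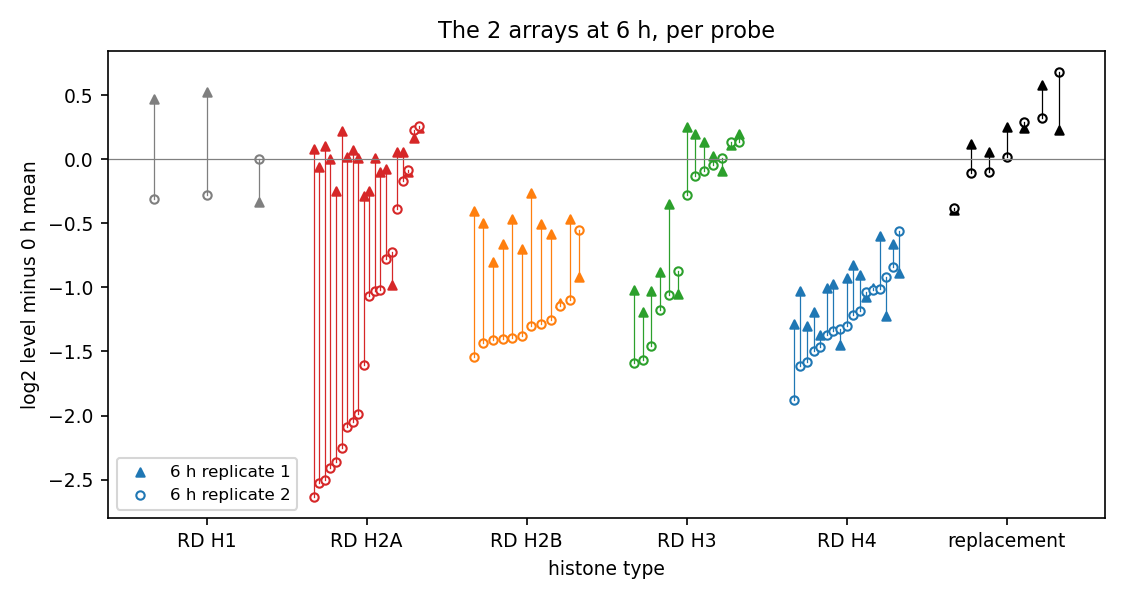
Log2 level of each histone probe on the 2 arrays at 6 h, relative to its mean at 0 h, with a line joining the arrays for 1 probe. RD H2A probes differ by up to 2.71 between the arrays, and the RD H4 probes by 0.59 at most.

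Replacement histones and H1 showed no call in naive cells. None of the 7 replacement probes was called at 6 or 24 h in the limma fit, with 1 higher at an unadjusted p under 0.05 at 6 h and 0 at 24 h. H3f3b, which with H3f3a encodes H3.3, had levels of 11.26 and 11.14 at 0 h, 11.78 and 11.52 at 6 h, and 11.15 and 11.09 at 24 h. Its difference at 6 h was 0.45 ± 0.17 (adjusted p = 0.163), and 0.32 ± 0.21 without the first 6 h array (adjusted p = 0.455). H3f3a (probe ILMN_3145213) lay between 11.52 and 11.79 on all 6 arrays. H2az1 lay between 10.31 and 10.71, H2az2 between 8.34 and 9.21 and H2ax between 7.13 and 7.58. The H1f10 probe and the second H3f3a probe were dim, detected on 4 and 3 of the 12 arrays. H1f2, a linker histone gene of the chromosome 13 cluster, was at 10.22 and 9.85 at 0 h, 10.56 and 9.76 at 6 h, and 9.39 and 9.41 at 24 h on probe ILMN_2774537. Its difference at 24 h was -0.64 ± 0.28 (adjusted p = 0.263).

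Genes of the machinery around histone supply are given here beside the 6.14% and 5.39% of all probes called at 6 and 24 h, and counts in lists this small are no result about a list. Of 29 tested genes of DNA replication 1 rose at 6 h (Lig1, DNA ligase 1, by 0.84) and 1 fell at 24 h (Dbf4, which activates a replication kinase, by 0.71). Of 14 tested mitosis genes 0 were called at either time, with 2 higher at 6 h and 0 at 24 h at an unadjusted p under 0.05. Of 19 tested histone chaperones and deposition factors 0 were called, with 2 higher at each time at an unadjusted p under 0.05. Of 13 tested genes for histone mRNA transcription and processing 0 were called, with 2 lower at 6 h and 1 higher at 24 h at an unadjusted p under 0.05. Cenpa, the centromeric H3 variant, is 1 of 2 tested genes among other histone variants and was higher in naive cells with IL-7. It rose by 1.43 ± 0.16 at 6 h and by 0.76 ± 0.16 at 24 h (adjusted p = 0.000604 and 0.0187), with levels of 9.60 and 9.71 at 0 h, 10.99 and 11.19 at 6 h, and 10.42 and 10.41 at 24 h. Without the first 6 h array Cenpa rose by 1.53 and Lig1 by 0.89 at 6 h, and 1 chaperone gene, Anp32e, rose by 0.89, with 0 calls among the mitosis and mRNA processing genes (1 mitosis gene higher and 1 processing gene lower at an unadjusted p under 0.05).

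Between 24 and 6 h no histone probe was called, against 0.488% of all probes, and 20 were lower and 2 higher at an unadjusted p under 0.05. Over all probes tested 5.27% were lower and 5.92% higher at that threshold. The median difference was -0.43 for the replication-dependent and -0.10 for the replacement probes. The size depended on the first 6 h array, and not alike for all types. With both 6 h arrays the medians were -0.51 for H1, -0.59 for H2A, -0.33 for H2B, -0.44 for H3 and -0.47 for H4. Without the first they were -0.12, 0.23, 0.19, -0.28 and -0.43 in that order, and the replication-dependent median was -0.02. Without the second 6 h array the replication-dependent median was -0.64.

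After Th9 culture, few differences between cells with and without earlier IL-7 passed the test. In IL7 Th9 against Th9 cells 1 of the 72 probes fell and 0 rose, while 0.705% of all probes were called. The gene was H3c3, with levels of 6.07, 6.23 and 5.97 in IL7 Th9 cells, against 6.91, 7.26 and 7.18 in Th9 cells. The groups did not overlap, and the difference was -1.02 ± 0.13 (adjusted p = 0.00739). With the experiments normalised apart, with median scaling or with only the 2 groups fitted, H3c3 was not called (-0.96 to -1.02). The count was 2 without the first or second IL7 Th9 array and 3 without either 6 h array. Without the first IL7 Th9 array, which carried Xist, 0.66% of all probes were called. H3 and H2B probes other than H3c3 did not pass the test, and most were lower in IL7 Th9 cells. The H3 median, H3c3 included, was -0.61 (-0.31 at the bounds), with 7 of 13 lower with no overlap between arrays, and the H2B median -0.49, with 9 of 12, against 7.53% of all probes tested. H3c7 (probe ILMN_2748164) was at 8.33, 8.74 and 8.40 in IL7 Th9 cells, against 9.18, 9.20 and 9.23 in Th9 cells, a difference of -0.71 ± 0.15 (adjusted p = 0.0561). H2bc7 had -0.67 ± 0.21 (adjusted p = 0.204). The H4 median was -0.32 and the H2A median -0.08. Replacement probes ran from -0.51 to 0.45, the highest being H1f10, which was at 7.09 on the first IL7 Th9 array and at 4.54 and 5.33 on the others, against 5.04, 5.56 and 5.01 in Th9 cells. Without that array the replacement median was -0.27. The globin gene Hbb-bt was lower in these cells too, with signals of -0.2, 12.3 and 3.9 in IL7 Th9 cells, against 230.6, 164.6 and 143.7 in Th9 cells. Its part in the result was not tested.

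**Figure D4:**
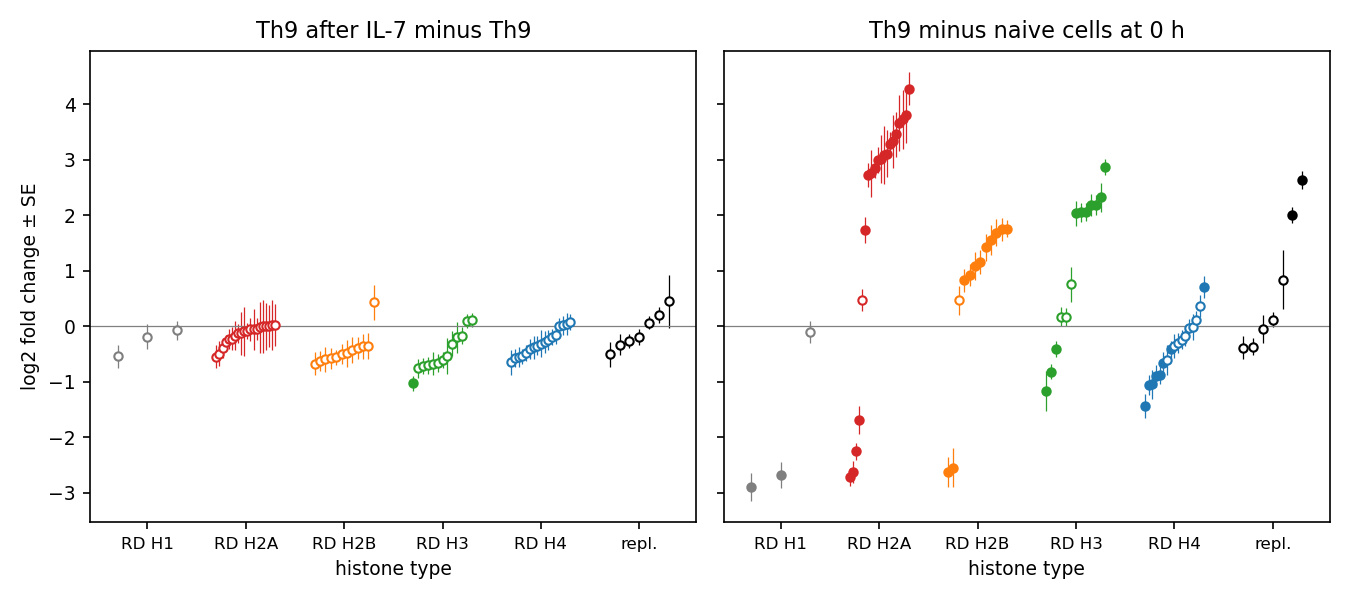
Log2 fold change of each histone probe with its standard error for IL7 Th9 minus Th9 cells and for Th9 cells minus naive cells at 0 h, by histone type. Filled points passed the test. RD H2A probes reach 4.28 in the second comparison, and H1f2 lies at -2.68 and -2.89.

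Th9 cells against naive cells at 0 h gave the widest spread between histone types. Because the groups lay on different BeadChips, cell state and chip cannot be told apart here. Of the 72 probes 34 rose and 18 fell, in a comparison in which 65.1% of all probes were called (30.6% rose and 34.5% fell), so these counts are no result about histones as a class. H2A genes had the highest increases. Of 20 H2A probes 15 rose and 4 fell, with a median of 3.00. H2ac11 was at 10.81, 10.94 and 10.96 in Th9 cells, against 6.39 and 6.85 in naive cells at 0 h, a 19.4-fold increase (4.28 ± 0.30, adjusted p = 2.33e-07). H2ac7 (probe ILMN_2795040) was at 13.31, 13.43 and 13.41 in Th9 cells, against 9.43 and 9.73 at 0 h, a 13.9-fold increase (adjusted p = 3.68e-05). H2ac24 stood at 14.81, 14.75 and 15.03 in Th9 cells, against 11.34 and 11.46 at 0 h, and rose 10.99-fold (adjusted p = 1.6e-05). On each of the 6 arrays of Th9 cells 5 H2A probes were among the 100 brightest, and on the 6 arrays of naive cells 0 were.

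H2B and H3 genes rose less and H4 genes did not follow. Of 12 H2B probes 9 rose and 2 fell (median 1.13). H2bc21 (probe ILMN_1253851) was at 8.82, 8.71 and 8.82 in Th9 cells, against 6.98 and 7.06 at 0 h, and rose by 1.76 ± 0.15 (adjusted p = 1.37e-06). Of 13 H3 probes 7 rose and 3 fell (median 2.04, or 1.78 at the bounds). H3c3, which was not detected in naive cells, was at least 4.56-fold higher in Th9 cells (adjusted p = 2.95e-08). It passed the detection filter only through the arrays of Th9 cells, so its direction was close to fixed. H3c7 rose by 2.05 ± 0.16 on probe ILMN_2748164 (adjusted p = 7.74e-07). Of 17 H4 probes 1 rose and 7 fell, with a median of -0.35. H4c6 (probe ILMN_1222313) had 7.16, 7.86 and 7.48 in Th9 cells, against 7.97 and 7.74 at 0 h, which overlapped. H4c12 fell by 1.43 ± 0.22 on probe ILMN_2525570 (adjusted p = 0.00012) and H4c3 by 0.87 ± 0.16 (adjusted p = 0.000583). H4c2 was the one to rise, by 0.70 ± 0.19 on probe ILMN_2525620 (adjusted p = 0.00734). Its other probe, ILMN_1213257, was not called, with -0.01 ± 0.23 (adjusted p = 0.961).

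A few replication-dependent genes were lower in Th9 cells, and these were picked out after their values were seen. Both H1f2 probes fell, with 7.21, 6.82 and 7.41 in Th9 cells, against 10.22 and 9.85 at 0 h, on probe ILMN_2774537 (7.43-fold lower, adjusted p = 1.46e-06). H2ac18 and H2ac19, of the chromosome 3 cluster, fell, with log2 fold changes of -2.62 and -2.25 (adjusted p = 5.19e-07 and 1.84e-07). A second H2ac18 probe was not well above background in Th9 cells and was at least 3.74-fold lower. It passed the detection filter only through the arrays of naive cells, so its direction was close to fixed. H2bc4 was at 5.75, 5.46 and 5.49 in Th9 cells, against 7.89 and 8.33 at 0 h, and fell by 2.55 ± 0.35 (adjusted p = 5.78e-05). For 3 genes the probes were called in opposite directions. H2ac20 rose by 2.99 on 1 probe and fell by 1.68 on the other. H2bc21 rose by 1.76 and fell by 2.62, and H3c7 rose by 2.05 and fell by 1.16. Which transcript each of these probes reads was not tested.

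Among the replacement histones 2 rose in Th9 cells. H2ax, which is phosphorylated at DNA breaks, was at 10.004, 9.745 and 10.045 in Th9 cells, against 7.32 and 7.26 at 0 h, and rose by 2.64 ± 0.16 (adjusted p = 9.74e-08). H2az1 was at 12.39, 12.26 and 12.42 in Th9 cells, against 10.31 and 10.40 at 0 h, and rose by 2.00 ± 0.14 (adjusted p = 2.57e-07). Its paralogue H2az2 was at 8.38, 8.03 and 8.02 in Th9 cells, against 8.34 and 8.71 at 0 h, a difference of -0.39 ± 0.21 (adjusted p = 0.122). H3f3a differed by 0.12 ± 0.13 on probe ILMN_3145213 (adjusted p = 0.46) and H3f3b by -0.36 ± 0.16 (adjusted p = 0.0605). The groups thus overlapped or nearly met for H2az2 and H3f3a but stood well apart for H2ax and H2az1.

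Cell cycle genes rose with H2ax, H2az1 and most H2A, H2B and H3 genes. The counts below stand beside 65.1% of all probes called in this comparison (30.6% rose and 34.5% fell). Counts in the smaller lists are no result about those lists. In 1 of the 2 groups 11 of 29 replication genes, 8 of 14 mitosis genes and 1 of 19 chaperone genes were not well above background. Genes undetected at 0 h could pass the detection filter through the arrays of Th9 cells alone. Their direction was thus largely fixed and is no support. Of 29 tested DNA replication genes 27 rose and 1 fell in Th9 cells (median 2.53, or 2.35 at the bounds). Tk1, thymidine kinase, was not detected at 0 h and was at least 51.3-fold higher in Th9 cells (adjusted p = 1.67e-09), and Tyms, which makes thymidylate, rose by 4.86. Of 14 mitosis genes 13 rose (median 4.73), among them Cdk1, the kinase of mitotic entry, which was not detected at 0 h and was at least 59.1-fold higher (adjusted p = 4.19e-09). Of 19 histone chaperones and deposition factors 13 rose and 2 fell (median 1.42). Chaf1a, a subunit of the chromatin assembly factor that loads new H3 and H4, was not detected at 0 h and was at least 23.2-fold higher, and Asf1b, which hands H3 and H4 on, rose by 2.53. Of 13 genes for histone mRNA transcription and processing 3 rose and 4 fell (median 0.33, or 0.22 at the bounds). Npat, the coactivator of replication-dependent histone genes, fell by 0.83 and Ncbp1, a cap-binding protein, rose by 1.24. All probes tested had a median of -0.08 in this comparison, and 0.18 when arrays were scaled to the same median in place of quantile normalisation. Under that scaling 40 histone probes rose and 16 fell. Cell identity genes moved as well: 5 of 6 tested T cell genes and 3 of 4 tested natural killer genes fell in Th9 cells. Their part in the histone signals was not tested.

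**Figure D5:**
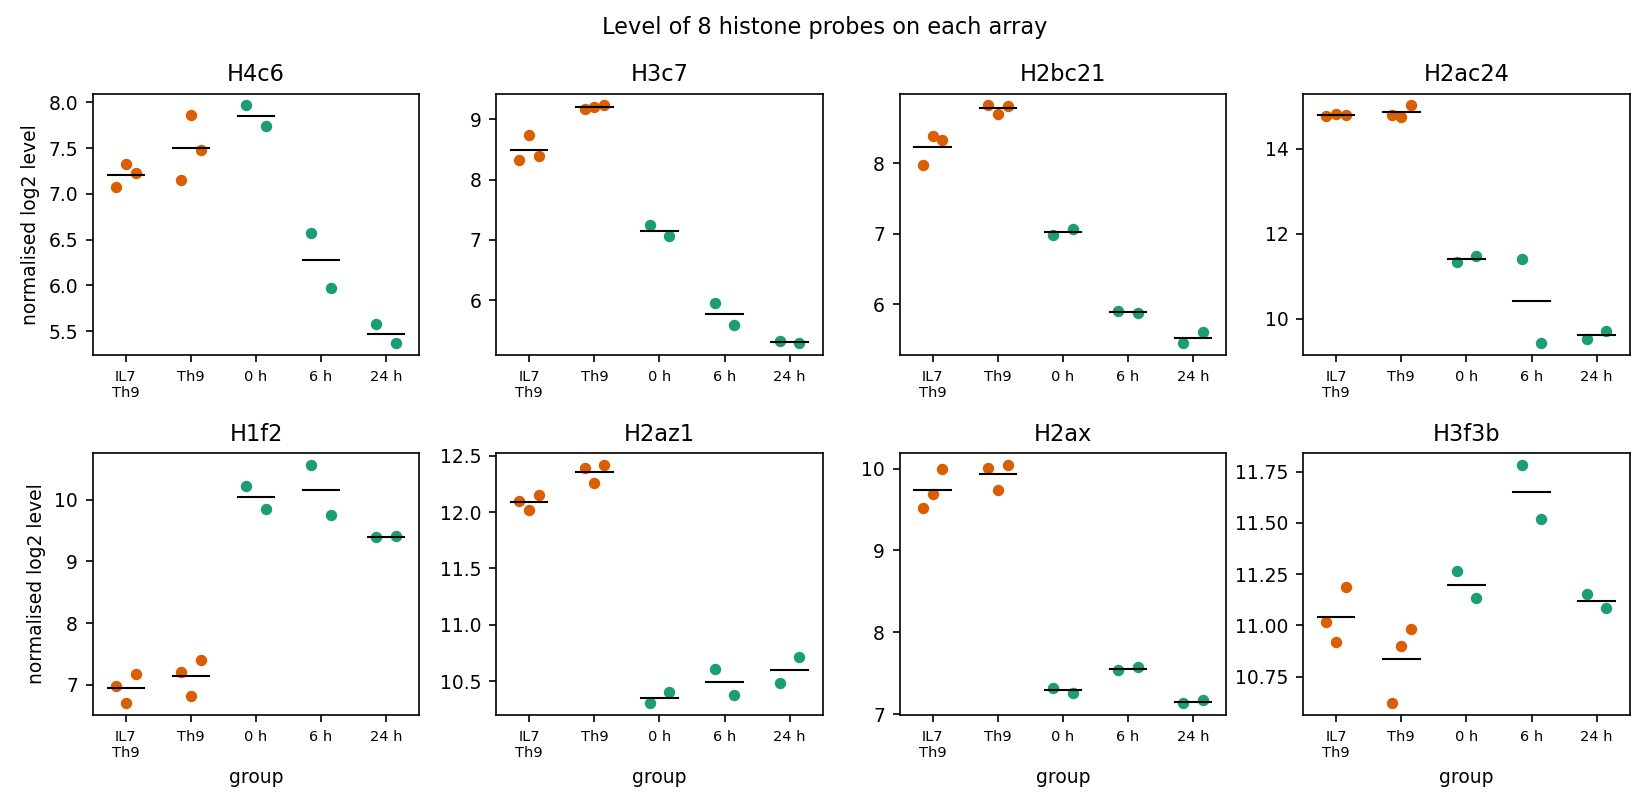
Normalised log2 level of 8 histone probes on each array (points) with the group mean (line) and a separate axis range per probe, for IL7 Th9 and Th9 cells and for naive cells at 0, 6 and 24 h. H4c6 is lowest at 24 h, H1f2 is low and H2ac24, H2ax and H2az1 are high in Th9 cells, and H3f3b lies between 10.62 and 11.78 throughout.

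The difference between 24 and 0 h in naive cells was set against that between IL7 Th9 and Th9 cells by an interaction term, each part of which lies within 1 BeadChip. Of the 72 probes 13 were more negative in naive cells and 1 more positive, while 2.84% of all probes were called (1.3% more negative and 1.54% more positive). Of the 13, 11 were H4 probes. For H4c6 (probe ILMN_1222313) the naive difference was -2.39 and that in Th9 cells -0.29, so that the interaction was -2.10 ± 0.32 (adjusted p = 0.00726). The interaction for H3c7 was -1.13 ± 0.23 on probe ILMN_2748164 (adjusted p = 0.0271) and 0.02 ± 0.52 on its second probe (adjusted p = 0.993). For H4c3 it was -1.79 ± 0.23 (adjusted p = 0.00355). H3c3 went the other way, by 1.11, having been undetected in naive cells. None of the 20 H2A probes was called in the limma fit, with 14 lower at an unadjusted p under 0.05 and a median of -1.20, and without the first or the second 6 h array 13 of them were called. The replacement median was 0.06, with 0 called and 1 higher at an unadjusted p under 0.05. The 14 calls rest on few arrays. The replication-dependent median, -0.863 in the full fit, was -0.836 without the first 0 h array and -0.813 without the second. It was -0.759 without the first 24 h array and -0.865 without the second. Fewer histone probes, and fewer of all probes, were called in these fits. Without either 6 h array 28 were more negative and 1 more positive, while 4.34% of all probes were called. Without the first IL7 Th9 array 13 were more negative and 1 more positive, while 2.41% were called.

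Over single arrays, the median level of replication-dependent probes relative to 0 h, minus that of replacement probes, was 0.03 and -0.03 at 0 h, -0.69 and -1.20 at 6 h, and -1.27 and -1.18 at 24 h. It was -0.08, 0.24 and 0.05 in IL7 Th9 cells, against 0.44, 0.49 and 0.30 in Th9 cells. The pooled standard deviation within groups was 0.17. In naive cells with IL-7 the replication-dependent median relative to 0 h lay below the replacement median on all 4 arrays, which does not hold for every single probe.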

How the data were processed

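Signals of 45281 probes on 12 arrays were used, 1 array per sample and 2 or 3 samples per group, grouped by the labels. The deposited intensity of each probe is linear, falls below 0 for some probes and had not been normalised between arrays. The submitters' processing notes name GenomeStudio without a version. A detection p-value was deposited beside each intensity. A second deposited intensity table, scaled by the authors, was not used, because its values did not correlate with those of the same probe name (Spearman -0.0083 to 0.0019 over 30854 probes). Symbols came from the platform's probe table (34885 probes with 1 symbol, 18 with several, 10378 with none), and all 95 histone symbols matched RefSeq.

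All 12 arrays went jointly through neqc (limma 3.58.1, R 4.3.3, with normexp, negative controls inferred from detection p-values, offset 16, quantile normalisation, log2). The 18017 probes with a detection p under 0.01 on 2 or more arrays entered 1 lmFit and eBayes fit of 5 group means (7 residual degrees of freedom), with Benjamini-Hochberg adjustment over all and calls at 0.05. The fit was tested on simulated data. Probes named singly were the replacement histones, up to 10 called members of largest change per comparison, those at the edge of the detection filter, and up to 4 called genes per other list (1 probe per gene, the brightest). Further members named for their type or for probes that disagree were picked after their values were seen. The members, classes and gene lists were chosen with earlier results of these data known. A group was counted as not well above background where no array had a detection p under 0.01. Replicate numbers did not pair the arrays: deviations of arrays with the same number correlated between -0.193 and 0.207. Alternatives varied the normalisation, background correction, detection filter, probe choice, weights, block, groups fitted and single arrays.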

Additional observations from a re-analysis of the deposited data

Results flagged for a closer look

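For 14 histone probes the difference between naive cells at 24 h and at 0 h, in which IL-7 and culture time go together, departed from that between IL7 Th9 and Th9 cells, by the interaction term of the limma fit with Benjamini-Hochberg adjustment over all probes tested. The values are log2 differences, naive minus Th9, over 10 arrays. H4 genes made up 11 of the 14. H4c18 had -1.811 ± 0.218 (SE) and -1.895 ± 0.259 on its probes (adjusted p = 0.00232 and 0.00475), and H4c3 had -1.794 ± 0.23 (adjusted p = 0.00355). H4c6 had -2.097 ± 0.317 and -1.354 ± 0.295 (adjusted p = 0.00726 and 0.034), and H4c12 had -1.93 ± 0.306 and -1.729 ± 0.279 (adjusted p = 0.00908 and 0.00927). H4c17 had -1.558, H4c1 -1.289, H4c9 -1.275 and H4c11 -1.25, with adjusted p-values from 0.0115 to 0.0355. H4c3 and 1 probe each of H4c6, H4c12 and H4c18 were not well above background at 24 h, so their values give no exact size. Among H2B genes H2bc21 had -0.95 ± 0.215 on probe ILMN_1253851 (adjusted p = 0.0391). Among H3 genes H3c7 had -1.135 ± 0.233 on probe ILMN_2748164 (adjusted p = 0.0271). Their second probes were not called, with 0.489 ± 0.387 for H2bc21 and 0.018 ± 0.518 for H3c7 (adjusted p = 0.592 and 0.993). H3c3 had 1.107 ± 0.211 (adjusted p = 0.019), a value that comes from Th9 cells, since the probe was not detected in naive cells. The H4 levels in naive cells moved on a BeadChip on which erythroid and natural killer markers differed between 0 and 24 h, and the part of those cells was not tested. Whichever array was left out, 3 of the 14 probes were called, of H4c18 and H4c3.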

How the results depend on the processing

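Counts are of histone probes called unless all probes are named, and differences are the replication-dependent minus the replacement median log2 fold change. As reported, histone and all-probe counts were 23 and 1106 (6 h minus 0 h), 34 and 971 (24 h minus 0 h), 0 and 88 (24 h minus 6 h), 1 and 127 (IL7 Th9 minus Th9), 52 and 11735 (Th9 minus 0 h) and 14 and 512 (interaction). With each experiment normalised and fitted apart, 21 were called at 24 h, 11 of all probes between 24 and 6 h, and 0 and 21 of all probes for IL7 Th9. Median scaling gave 0 and 59 of all probes for IL7 Th9 and a difference of 0.281 for Th9 minus 0 h, against 0.588 as reported. Without normexp 2 were called for IL7 Th9. Without the detection filter 81 of all probes were called for IL7 Th9, and the differences were -0.891 at 6 h, -0.895 at 24 h and -0.123 for Th9 minus 0 h, the last a reversed sign, with the symbol rule's 95 probes in the medians in place of 72. With 1 probe per gene 2 were called for IL7 Th9, and the difference for Th9 minus 0 h was 0.314. Array weights gave 53 and 3369 of all probes at 24 h, 2 and 213 between 24 and 6 h, and 25 and 1199 in the interaction. Fits of only the 2 groups compared gave 5 and 172 of all probes at 6 h, 53 and 3296 at 24 h, 1 of all probes between 24 and 6 h, and 0 and 21 for IL7 Th9. The cause was not tested for any of these. The replicate numbers share no known source. A fit with the replicate number as a block gave 21 calls at 6 h and 27 at 24 h, 49 of all probes between 24 and 6 h, and a difference of 0.281 for Th9 minus 0 h. Deviations of same-numbered arrays correlated between -0.193 and 0.207. Leaving out 1 array at a time gave histone counts of 8 to 42 at 6 h, 16 to 45 at 24 h, 0 to 22 between 24 and 6 h, 1 to 3 for IL7 Th9, 48 to 56 for Th9 minus 0 h and 3 to 29 in the interaction. All-probe counts ran over 251 to 1251, 208 to 1233, 11 to 633, 38 to 205, 9616 to 11958 and 70 to 782 in that order. The differences ran over -1.204 to -0.69 at 6 h, -1.272 to -1.153 at 24 h, -0.463 to -0.006 between 24 and 6 h, -0.153 to 0.055 for IL7 Th9 and 0.369 to 0.675 for Th9 minus 0 h. Requiring detection on 3 arrays or keeping H2ax out of both classes left the counts within 1.5 times and the differences within the spread. Dim signal limits the sizes for 25 of the 72 probes, which were not detected on all arrays.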
